A study of Homo sapiens with 4 samples.

Results

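The genes described here are 7 members of the BCL2 family that promote cell death, BCL2L11, BBC3, PMAIP1, BAD, BID, BAX and BAK1, and the measurement is where the transcription factor STAT5A sat on them in ARP1 multiple myeloma cells. The genes were chosen by name and function, out of 19974 protein-coding genes on the autosomes and chromosome X. Their peaks were every peak that the deposited lists credit to a member, in any annotation class, and every peak inside a member's RefSeq gene span or within 1 kb of its ends that is credited to another gene. This gave 21 of 31227 peaks in YTHDF2 knockdown cells and 32 of 55269 peaks in wild-type cells.

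The assay was ChIP-seq, in which DNA pulled down with an antibody to STAT5A is sequenced and stretches with many reads are called as peaks. The groups were ARP1 cells with a knockdown of YTHDF2, a reader protein of N6-methyladenosine on RNA, and wild-type ARP1 cells, an established line labelled as bone marrow and multiple myeloma. Each had 1 STAT5A immunoprecipitate and 1 input, 4 libraries in all, and 1 peak list was deposited for each condition. How YTHDF2 was knocked down and whether the cells are a clone are not stated in the labels. The lists hold no RNA, so neither the knockdown nor the cell type could be checked in them. With 1 list per condition no difference between conditions has a replicate check, and none is tested. The fold enrichment of a peak is the authors' own, its depth is unknown, and folds from both lists are printed next to each other only to describe each list.

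The BCL2 family decides whether the mitochondrial outer membrane is opened. BAX and BAK1 are the effectors that form pores in that membrane and let cytochrome c out, which leads to caspase activation. The BH3-only proteins BIM (encoded by BCL2L11), PUMA (BBC3), NOXA (PMAIP1), BAD and BID act upstream of them, by binding the survival proteins of the family, by engaging BAX and BAK1, or both. BIM and NOXA are known for their part in the killing of myeloma cells by drugs.

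The bases just before the RefSeq start are shown for 5 members whose RefSeq start lay under a peak in both lists, so that the peaks described below can be placed on them. The peaks over the starts of BCL2L11, PMAIP1 and BAD cover all of the bases shown, and those of BAX and BAK1 cover only the part nearer the gene. BID has 5 RefSeq starts close together and is left out. They are from RefSeq (GRCh38.p14), 5′ to 3′ on the strand of the gene, and end at the base before the first transcript start in the window. Capitals mark matches on either strand to the letters searched, of which CCAAT (the NF-Y box, ATTGG on the other strand), GGGCGG (the GC box, CCGCCC on the other strand) and CACGTG (an E-box, which reads the same on both strands) were found.
BCL2L11, chr2:111120664-111120913, plus strand: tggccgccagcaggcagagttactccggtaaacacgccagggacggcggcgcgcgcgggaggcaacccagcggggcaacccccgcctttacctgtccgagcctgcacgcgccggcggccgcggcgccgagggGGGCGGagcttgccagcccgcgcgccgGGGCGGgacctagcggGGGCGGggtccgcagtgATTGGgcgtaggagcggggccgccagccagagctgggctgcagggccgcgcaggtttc
PMAIP1, chr18:59899746-59899947, plus strand: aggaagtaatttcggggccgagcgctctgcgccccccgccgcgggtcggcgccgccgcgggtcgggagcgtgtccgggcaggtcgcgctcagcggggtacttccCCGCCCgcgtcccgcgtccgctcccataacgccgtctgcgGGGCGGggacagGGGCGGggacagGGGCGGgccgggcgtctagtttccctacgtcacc
BAD, chr11:64284705-64284954, minus strand: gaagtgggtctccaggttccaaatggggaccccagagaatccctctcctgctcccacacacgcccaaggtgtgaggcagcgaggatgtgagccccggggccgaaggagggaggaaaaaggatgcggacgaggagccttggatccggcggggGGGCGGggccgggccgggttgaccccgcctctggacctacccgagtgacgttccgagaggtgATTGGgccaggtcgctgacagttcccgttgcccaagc
BAX, chr19:48954625-48954814, plus strand: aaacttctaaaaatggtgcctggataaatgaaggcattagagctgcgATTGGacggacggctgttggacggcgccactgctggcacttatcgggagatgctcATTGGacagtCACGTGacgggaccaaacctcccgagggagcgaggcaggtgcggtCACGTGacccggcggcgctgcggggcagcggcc
BAK1, chr6:33580294-33580526, minus strand: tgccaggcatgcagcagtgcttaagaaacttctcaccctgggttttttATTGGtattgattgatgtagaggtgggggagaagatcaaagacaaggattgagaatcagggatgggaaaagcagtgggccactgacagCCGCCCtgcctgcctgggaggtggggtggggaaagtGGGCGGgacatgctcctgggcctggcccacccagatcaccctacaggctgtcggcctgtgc

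In the full 250 bases before each RefSeq start, the STAT letters TTCNNNGAA were found in none of the members' windows, and 5.92% of the 22156 windows of all 15813 protein-coding genes in the RefSeq promoter table held them. This says only that these letters are not in these windows. The ETS letters CCGGAAG (10.7% of all windows) and the CRE letters TGACGTCA (2.01%) were not found either. CCAAT was present before BCL2L11, BBC3, BAD, BAX and BAK1 but not before PMAIP1 or any start of BID, and 32.7% of all windows held it. GGGCGG was present before a start of every member except BBC3, against 53.7% of all windows. PMAIP1 held 4 matches to it, as did 2 of the 5 starts of BID, and 10.2% of windows held 4 or more. The windows of those 2 BID starts overlap, and their 4 matches are the same sites. CACGTG was added to the search after the BAX sequence had been seen, and 7.37% of all windows held it. It was present once before BBC3, and at a single site that falls in the overlapping windows of 2 starts of BID. It was not present before BCL2L11, PMAIP1, BAD or BAK1. BAX held it 4 times, at 138 to 133, 93 to 88, 45 to 40 and 14 to 9 bases before its RefSeq start, of which the first 2 are in the bases shown. Only 5 of the 22156 windows, 0.0226%, held 4 or more.

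All 7 death genes had a STAT5A peak credited to them within 1 kb of a transcript start in the knockdown list, where 56.1% of protein-coding genes had such a promoter peak, and all 7 had one in the wild-type list, where 64.7% had. For every member a knockdown promoter peak shared 1 bp or more with a peak of the wild-type list, which held for 54.4% of protein-coding genes. Every member also had a peak in its gene span or 1 kb around it, as 70.6% of protein-coding genes had in knockdown and 79.6% in wild type. BIM's gene BCL2L11 carried the strongest promoter peak of the group in both lists, and the effector genes BAX and BAK1 carried the weakest. The median of the members' strongest promoter folds was 5.91 in knockdown and 20.7 in wild type, beside medians of 5.22 and 11.1 over the 11198 and 12915 protein-coding genes with a promoter peak in the knockdown and the wild-type list.

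**Figure D1:**
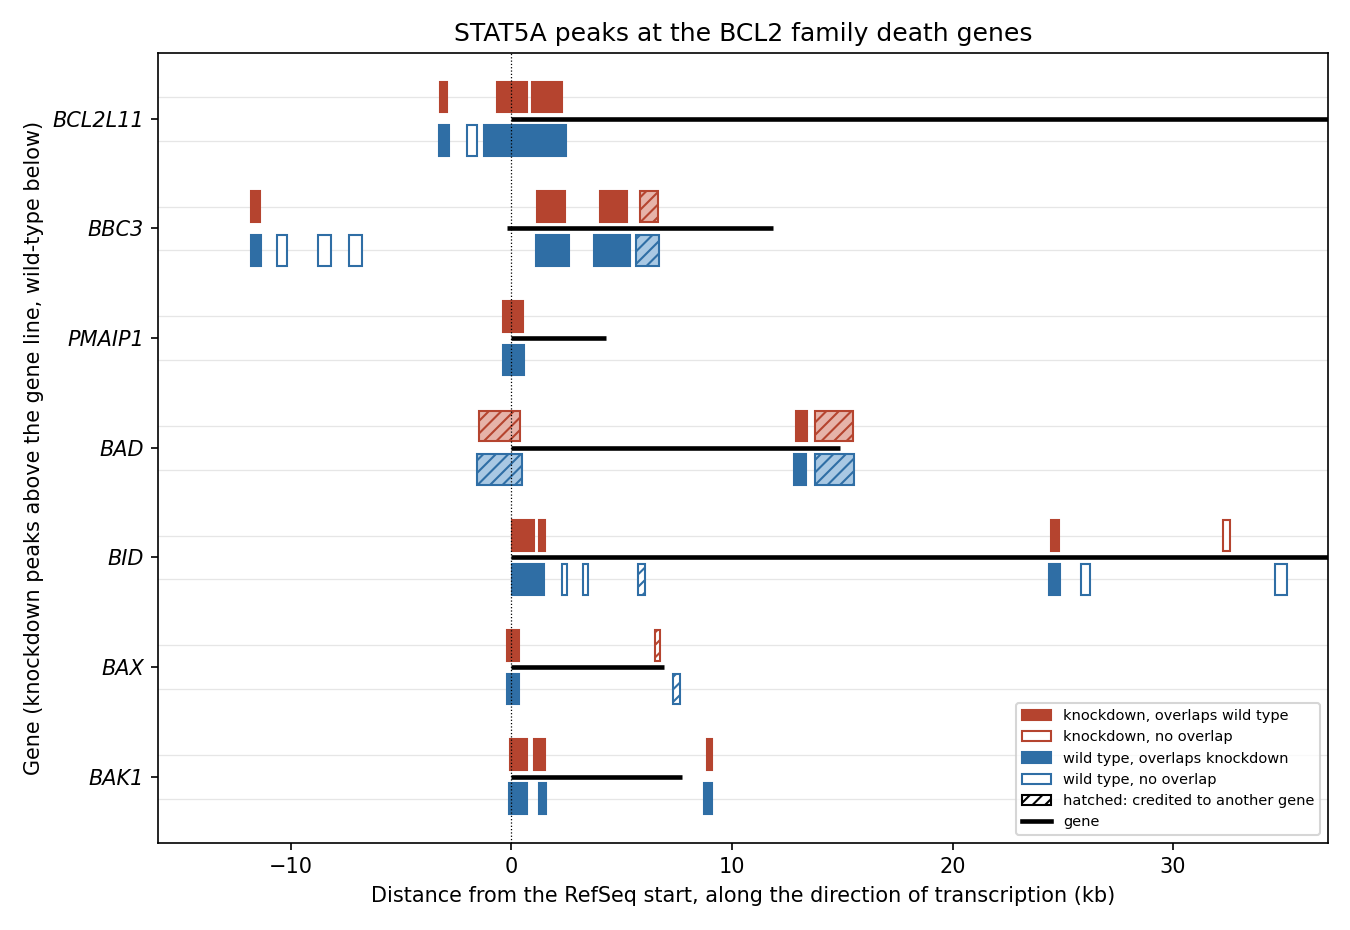
Position of each STAT5A peak (x axis, kb from the most upstream start in the RefSeq promoter table, positive downstream) for the 7 genes (rows), with knockdown peaks above the black gene line and wild-type peaks below it. Filled bars overlap a peak of the other list, open bars do not, hatched bars are credited to another gene, and 7 peaks farther away (1 knockdown, 6 wild-type) fall outside the axis. Filled bars gather at the starts of most genes, and BBC3, BAD and BID also have filled bars well inside the gene.

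At BCL2L11 the strongest STAT5A signal of the group lay inside the gene and not at its RefSeq start. The knockdown list held a peak at chromosome 2, 111121827 to 111123191, with a fold of 50.4, and the wild-type list a peak at 111119685 to 111123389 with a fold of 214. Their summits, at 111122544 in knockdown and 111122555 in wild type, were 11 bp apart. Both lay downstream of the RefSeq start of the gene, by 1630 bases in knockdown and 1641 in wild type, and the knockdown summit lay at position -126 relative to an internal transcript start named in the list (uc061mwt.1, at 111122670). The authors' q-value of both peaks is listed as 0. BIM binds all the survival proteins and can engage BAX directly.

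The extent of the BCL2L11 peak differed between the lists. The wild-type peak was 3705 bp wide, wider than all but a small part of its list (width percentile 99.6). The knockdown list had 2 peaks in its place, 1336 and 1365 bp wide, with 1 of them over the RefSeq start (111120272 to 111121607, fold 6.91) and its summit at position -7 relative to that start, downstream of the GC boxes and the CCAAT box shown above. Because of this split, the reciprocal overlap of each knockdown peak with the wild-type peak was under 50%. A smaller peak upstream, inside the span of the neighbouring gene ACOXL but credited to BCL2L11, was present in both lists, with folds of 3.94 in knockdown and 7.80 in wild type. Peaks at 111118895 to 111119337 (fold 3.50) and, 96.6 kb downstream of the start, at 111217177 to 111217678 (fold 6.99) were in the wild-type list without a knockdown counterpart.

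**Figure D2:**
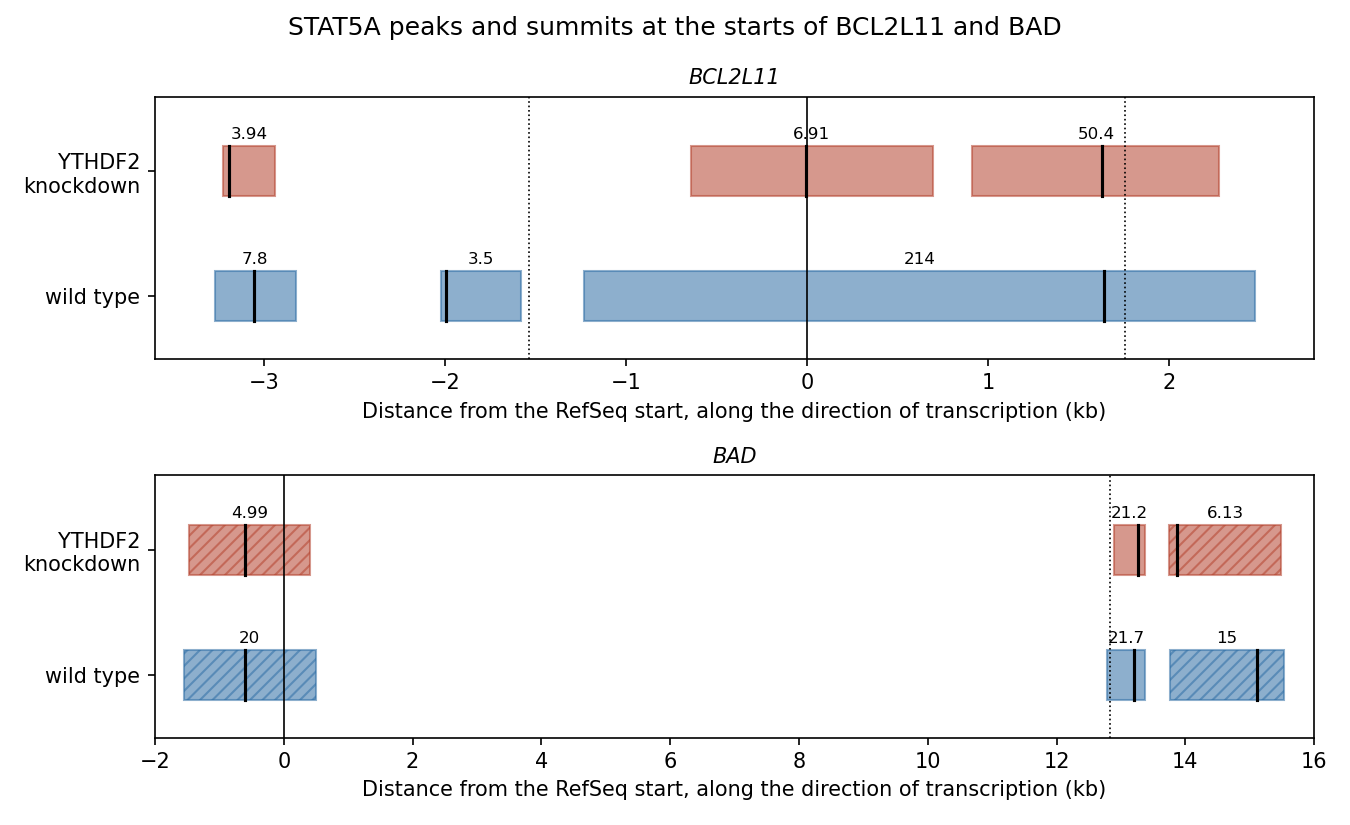
Peaks (bars) and summits (thick black ticks) at BCL2L11 and BAD in knockdown and wild type, in kb from the RefSeq start (solid line), with other transcript starts named for the promoter peaks dotted and the authors' fold above each bar. Hatched bars are credited to GPR137. At BCL2L11 the knockdown peaks of fold 6.91 and 50.4 stand where the wild-type list has a single peak of fold 214. At BAD the peak over the RefSeq start has a fold of 4.99 in knockdown and 20.0 in wild type.

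BBC3, the gene of PUMA, also carried its promoter peaks inside the gene, near internal transcript starts. The strongest lay at chromosome 19, 47227411 to 47228643 in knockdown (fold 12.4) and 47227282 to 47228919 in wild type (fold 27.6), with summits 30 bp apart. This peak did not reach the start named for it (uc021uwl.2, at 47227189). The knockdown summit was 4272 bases downstream of the RefSeq start and the wild-type summit 4242. The next peak spanned the start of transcript uc002pgf.5 at 47231194, with a fold of 8.75 in knockdown and 21.3 in wild type. On the other side of the strongest peak, a peak was credited to the microRNA gene MIR3190, which lies within BBC3, and had a fold of 6.62 in knockdown and 16.7 in wild type, with summits 11 bp apart. The 3 peaks thus had the same order of fold in both lists. No peak of either list reached within 1 kb of the RefSeq start of BBC3 at 47232667, where the nearest knockdown edge was 1147 bases away and the nearest wild-type edge 1095.

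Upstream of BBC3 the wild-type list held a group of distal peaks of which the knockdown list had 1. That peak, at 47244042 to 47244466 in knockdown, had a fold of 5.25 there and 10.2 in wild type. The 3 other wild-type peaks lay between it and the gene, with folds of 7.78, 6.52 and 5.72, and had no knockdown counterpart.

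At BAD, whose protein neutralises BCL-XL and is held back by phosphorylation, the peak credited to the gene was not the peak at its RefSeq start. The credited peak lay at chromosome 11, 64271324 to 64271812 in knockdown (fold 21.2) and 64271325 to 64271914 in wild type (fold 21.7). In wild type it spanned an internal transcript start (uc058cvy.1, at 64271868), and in knockdown it ended 56 bases from that start. It was far downstream of the RefSeq start at 64284704, with the summit 13269 bases from that start in knockdown and 13203 in wild type. The authors' q-value of the credited peak was 2.80e-98 in knockdown and 5.66e-72 in wild type. This credited peak also lay inside GPR137, a gene that overlaps BAD (RefSeq span 64270531 to 64289500). GPR137 has listed transcript starts at 64270062 and 64284339. The credited peak thus cannot be assigned to BAD alone. The peak over the RefSeq start of BAD was credited to GPR137. It spanned 64284293 to 64286182 with a fold of 4.99 in knockdown and 64284210 to 64286254 with a fold of 20.0 in wild type, and its summits were 4 bp apart. Another peak credited to GPR137, over the 3′ end of BAD, had a fold of 6.13 in knockdown and 15.0 in wild type. Its summits were 1240 bp apart, and the wild-type summit, at 64269599, lay beyond the end of BAD at 64269828. The internal peak of BAD was thus far above the other peaks of the locus within the knockdown list, whereas in the wild-type list the 3 folds lay close together.

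PMAIP1, the gene of NOXA, which binds MCL1, had a single promoter peak. It spanned 59899635 to 59900510 on chromosome 18 with a fold of 5.91 in knockdown, and 59899606 to 59900561 with a fold of 11.1 in wild type. The summits were 13 bp apart, at 205 bases before the RefSeq start in knockdown and 192 in wild type, inside the PMAIP1 bases shown above and upstream of the run of GC boxes. A distal peak credited to PMAIP1 lay 175.8 kb downstream in knockdown (fold 3.37), and overlapped a wild-type peak (fold 5.31) by 101 bp. A wild-type distal peak 69.7 kb downstream, at 59969487 to 59969921, had a fold of 10.1, the highest of all the members' peaks that lacked a counterpart in the other list.

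BID, which is cut by caspase 8 and so links death receptors to the mitochondrion, was the member with the widest gap in rank between the lists. Its promoter peak spanned 17773634 to 17774654 on chromosome 22 with a fold of 5.36 in knockdown, and 17773182 to 17774638 with a fold of 20.7 in wild type, and the summits were 73 bp apart. A second knockdown peak, at 17773133 to 17773411 (fold 3.54), overlapped the same wild-type peak. A peak annotated to a 5′ UTR well inside the gene was present in both lists, with a fold of 4.42 in knockdown and 5.61 in wild type. BID had 5 weak wild-type peaks without a counterpart, with folds from 2.83 to 4.73, and the knockdown list had 1 such peak (17742094 to 17742388, fold 3.95). The wild-type peak of fold 2.83 was credited to the microRNA gene MIR3198-1, which lies within BID.

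The effector genes had peaks over the start whose folds were low among promoter peaks. BAX, on chromosome 19, had a peak at 48954690 to 48955230 with a fold of 3.70 in knockdown, and at 48954692 to 48955219 with a fold of 7.86 in wild type. The peaks overlapped by 528 bp, and their summits were 69 bp apart. The knockdown summit lay 29 bases after the RefSeq start and the wild-type summit 40 bases before it, at the last base of the CACGTG match that runs from 45 to 40 bases before the start. At the 3′ end of BAX each list had a peak credited to FTL, the ferritin light chain gene (fold 4.66 in knockdown and 3.74 in wild type), and these did not overlap.

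BAK1 had low folds at each of its knockdown peaks. The peak over its start spanned 33579560 to 33580339 on chromosome 6 with a fold of 3.15 in knockdown, and 33579578 to 33580382 with a fold of 8.45 in wild type. The peaks overlapped by 762 bp and their summits were 304 bp apart. The authors' q-value was 6.99e-05 in knockdown and 9.41e-20 in wild type. A peak further in the gene had a fold of 3.94 in knockdown and 4.92 in wild type. Its edge was 980 bases from the transcript start in knockdown and 1233 in wild type, so it counted as a promoter peak within 1 kb in the knockdown list alone, although it overlapped by 246 bp and the summits were 21 bp apart. A peak downstream of the gene was also in both lists (fold 2.33 in knockdown and 5.11 in wild type), and distal wild-type peaks of fold 8.64 and 6.35 had no counterpart.

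**Figure D3:**
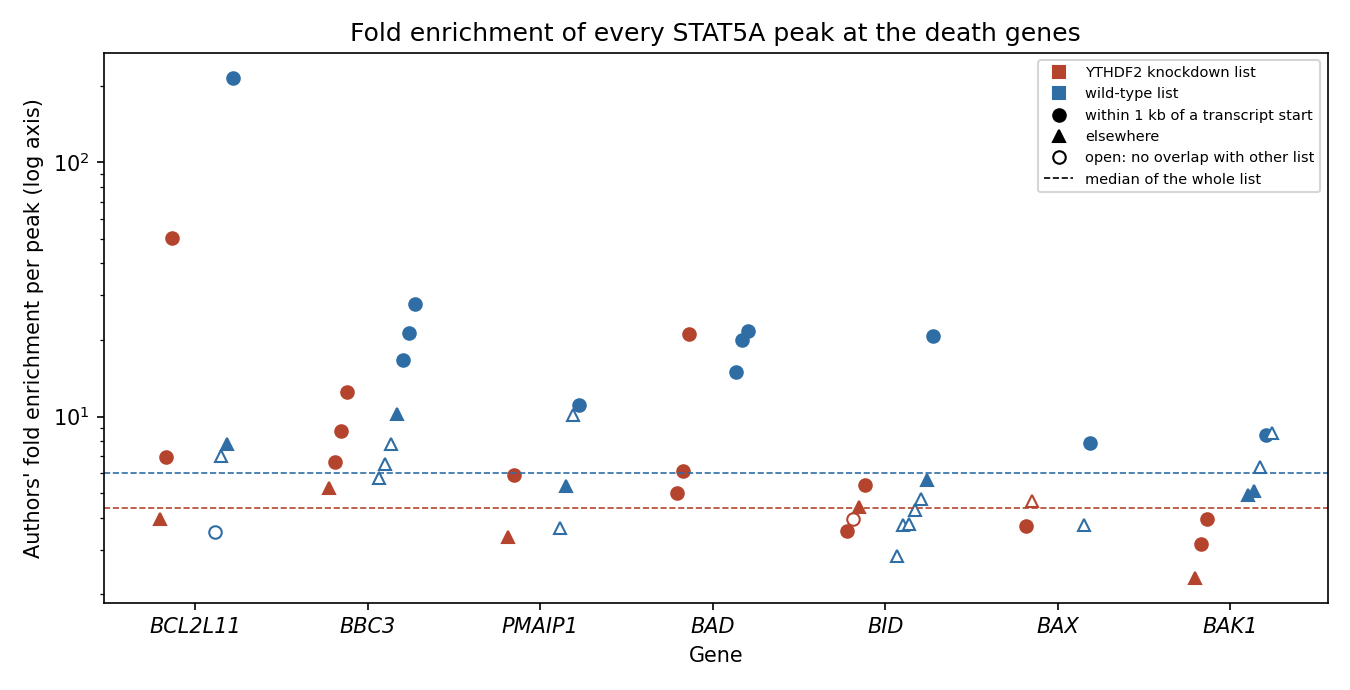
Authors' fold enrichment (y axis, log scale) of all 21 knockdown and 32 wild-type peaks at the 7 genes (x axis), with knockdown left of wild type for each gene. Circles are peaks within 1 kb of a transcript start, triangles are elsewhere, open symbols do not overlap the other list, and dashed lines are the whole-list medians of 4.35 in knockdown and 6.0 in wild type. Scales of the lists are not matched, so the symbols should be read within a colour. Open symbols stay at or below a fold of 4.66 in knockdown and 10.1 in wild type.

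Within its own list, each member's strongest credited promoter peak was placed among all protein-coding genes with a promoter peak. For BCL2L11 the percentile was 96.7 in the knockdown list and 98.1 in the wild-type list. BBC3 stood at 87.7 in knockdown and 88.3 in wild type, and BAD had a percentile of 91.8 in knockdown and 85.2 in wild type. PMAIP1 was near the middle, at 62.8 in knockdown and 50.2 in wild type. BID had a percentile of 52.7 in knockdown and 84.4 in wild type, and this gap was wider than that of any other member. BAX (13.5 in knockdown, 25.7 in wild type) and BAK1 (18.5 in knockdown, 29.9 in wild type) were in the lower part of both lists. For BAK1 the peaks ranked are not at the same site, being the inner peak in knockdown and the peak over the start in wild type. By credited peaks, the 5 BH3-only members thus stood above the middle in both lists, PMAIP1 in wild type only just, and the effectors below it. Other BH3-only genes did not all do so. BMF (53.4 in knockdown, 34.6 in wild type) and HRK (70.3 in knockdown, 35.8 in wild type) were below the middle in wild type. BIK was above it in both lists (57.3 in knockdown, 73.3 in wild type). The order of the members rests on which gene a peak is credited to. The peak over the RefSeq start of BAD, credited to GPR137, had a knockdown fold of 4.99, below the knockdown promoter median of 5.22. BBC3 had no peak within 1 kb of its RefSeq start. The lists differ in length, so a difference in percentile is not a measured change.

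**Figure D4:**
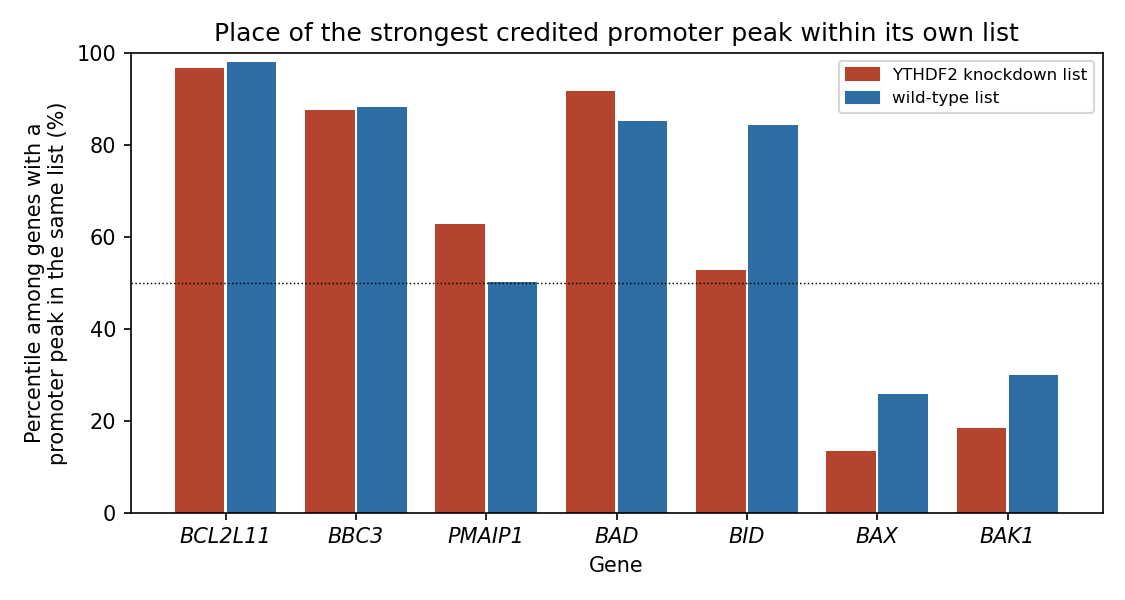
Percentile of each gene's strongest credited promoter peak by fold (y axis) among the protein-coding genes with a promoter peak in the same list, with knockdown bars left of wild-type bars and the dotted line at the 50th percentile. By the peaks credited to them, the 5 BH3-only members lie above the line in both lists, PMAIP1 in wild type only just (50.2). BAX and BAK1 lie below it in both lists.

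For 4 of the 7 genes in knockdown, BCL2L11, BBC3, BAD and BAK1, and for the first 3 of these in wild type, the summit of the strongest promoter peak lay more than 1 kb from every RefSeq start of the gene. This held for 10.6% of 9133 genes in knockdown and 12.9% of 10419 in wild type. The measure was chosen after the members' positions had been seen, and the table of starts holds 1 start for BCL2L11, BBC3 and BAK1 and 2 for BAD, while the transcript models used in the lists have other starts as well. When peaks were instead counted within 1 kb of a RefSeq start, whichever gene they were credited to, 6 of 7 members had one in each list and BBC3 did not. Of the 15813 genes with such a start, 65.1% had a peak there in knockdown, 74.6% in wild type and 64.0% in both lists.

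Over all annotation classes, 19 of the 21 knockdown peaks at the members overlapped a wild-type peak (90.5%, against 77.1% of all knockdown peaks), and 17 of the 32 wild-type peaks overlapped a knockdown peak (53.1%, against 40.4% of all wild-type peaks). Within 1 kb of a transcript start of any gene lay 15 of the 21 knockdown peaks and 12 of the 32 wild-type peaks. Of the 15 wild-type peaks without a counterpart, 7 were distal intergenic and 1 lay within 1 kb of a transcript start. Shares of these classes over all peaks of the lists were not computed, so these class counts describe the members' peaks only. Inside the genes and 1 kb of their ends, BID and BAX alone had wild-type peaks without a counterpart, as 40.5% of protein-coding genes had, and the same genes alone had such knockdown peaks, as 14.1% of protein-coding genes had. The medians of fold for unshared peaks were 4.31 at the members in knockdown and 4.73 in wild type, and 3.95 and 5.09 over the whole knockdown and wild-type lists.

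Of the peaks credited to another gene, the farthest one taken in by the 1 kb limit was the wild-type peak 416 bases beyond the end of BAX. Just outside it were a wild-type peak of fold 6.0 credited to FTL, 2109 bases beyond BAX, and a wild-type peak of fold 6.03 credited to GPR137, 2261 bases beyond BAD. In knockdown the nearest one was at FTL, 3078 bases beyond BAX, with a fold of 22.7.

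The other genes of the mitochondrial death pathway were described from 4 lists. Of 8 other death genes of the family, 6 had a promoter peak in both lists, namely BMF, BIK, HRK, BNIP3, BNIP3L and BCL2L13, and BOK and BCL2L14 had none. At BOK both lists had a peak within 1 kb of the RefSeq start, although none was credited to it as a promoter peak. The highest folds were those of BNIP3L, a mitophagy receptor (6.64 in knockdown, 16.9 in wild type), HRK, a BH3-only gene known from neurons (6.43 in knockdown, 9.24 in wild type), BIK (5.58 in knockdown, 15.3 in wild type) and BNIP3 (5.40 in knockdown, 14.8 in wild type). The median fold of the 6 was 5.49 in knockdown and 12.0 in wild type.

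Among the 6 survival genes, which the BH3-only proteins bind, promoter peaks were found in both lists at BCL2L1 (encoding BCL-XL, fold 91.6 in knockdown and 462 in wild type), BCL2 (6.40 in knockdown, 16.8 in wild type) and MCL1 (5.79 in knockdown, 14.6 in wild type). BCL2L10 had one in wild type alone (7.33), and BCL2L2 and BCL2A1 had none. At BCL2L2 each list had 1 peak in the gene or within 1 kb of its ends, credited to another gene. In both lists BCL2L1 was above BCL2L11, and BCL2 and MCL1 were below BCL2L11 and BBC3.

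Among the genes reported here that act after BAX and BAK1, HTRA2, a protease released from mitochondria, was first by promoter fold in each list (26.2 in knockdown, 92.9 in wild type), followed in wild type by DIABLO, which encodes the XIAP antagonist SMAC (4.85 in knockdown, 15.9 in wild type), CYCS, the cytochrome c gene (4.27 in knockdown, 14.3 in wild type), and XIAP (5.92 in knockdown, 14.0 in wild type). APAF1, the scaffold of the apoptosome, had a credited promoter peak in knockdown alone (2.66), although both lists had a peak within 1 kb of its RefSeq start. AIFM1 had one in wild type alone (9.15).

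Among the transcription factors reported here, which are known to act on BH3-only genes or are STAT5 genes themselves, FOXO1 (18.1 in knockdown, 96.8 in wild type) and E2F1 (21.6 in knockdown, 76.0 in wild type) had promoter folds above those of the others in each list, followed in wild type by FOXO3, which is known to activate BCL2L11 (5.75 in knockdown, 19.2 in wild type), and STAT5A (5.51 in knockdown, 15.3 in wild type). FOXO4 had a credited promoter peak in wild type alone (3.37). JUN had one in knockdown alone (6.16), but a peak lay within 1 kb of its RefSeq start in both lists. The shares with a promoter peak in both lists, 75.0% of the other death genes and 3 of the 6 survival genes, stand beside 53.6% of all protein-coding genes and are given as descriptions.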

How the data were processed

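Per the submitters' processing notes, MACS2, Bowtie2, cutadapt, Trimmomatic and FastQC were used with the build hg38, and no versions or settings are given. The fold enrichment is a linear ratio deposited by the authors, and what it is taken over is not stated. Each peak also has a q-value from the authors, with largest deposited q-values of 0.05 in knockdown and 0.0497 in wild type. Summit offsets and distances to a transcript start are in bases, as deposited, and were used as given. A summit position was taken as the peak start plus the offset. Depth is unknown, as reads were not analysed here.

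Members were matched by gene identifier, and gene spans and starts came from RefSeq (GRCh38.p14). Peaks overlapping by at least 1 bp were called shared, checked with bedtools 2.31.1. A percentile is the share of genes with a lower fold with ties split evenly. No test between conditions was made. The overlap and percentile steps were tested on simulated data. Python 3.11.15, numpy 2.4.6, pandas 2.3.3 and matplotlib 3.10.9 were used.

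The members and lists were chosen with earlier results of these data known. The text names every member, genes credited with peaks in a member's window and, per member, the gene nearest to it in both percentiles. Folds are given for at most 4 genes of each list by highest fold, plus those in a single list. All of the other death genes and all of the survival genes are named. Some genes of the lists of later steps and of transcription factors are not reported here, so no count or share is given for these lists.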

Additional observations from a re-analysis of the deposited data

How the results depend on the processing

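The counts of members with a promoter peak (7 in each list and 7 shared) stayed between 5 and 7 when peaks were limited to a fold of at least 5 or to a q-value under 0.01 or 0.001. The counts per list were 6 or 7 with a 3 kb window, RefSeq starts or summit distances, and the shared count was 6 or 7 with a reciprocal overlap of 50%, summits within 100 bp, or as many top wild-type peaks as there are knockdown peaks. A fold of at least 5 removed BAX and BAK1 from the knockdown list, RefSeq starts removed BBC3, and the reciprocal overlap removed BCL2L11. With a fold of at least 5, the number of peaks at the members was 10 in knockdown, against 21 of any fold, and 23 in wild type, against 32, and the cause was not tested. The filter applies 1 fold value to lists whose scales are not matched. Of 29 alternatives, 28 were within 1.5 times of the value reported. No paired analysis was possible because each condition has 1 peak list.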

Other observations

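Genes whose pair of percentiles was nearest to that of a member, over the 2 lists and so over 2 values each, were ANKRD11 for BCL2L11 (folds of 49.5 in knockdown and 216 in wild type), FBXO11 for BBC3 (13.0 in knockdown, 27.2 in wild type), NCOA5 for PMAIP1 (5.91 in knockdown, 11.1 in wild type), CCDC61 for BAD (20.5 in knockdown, 22.2 in wild type), MED13L for BID (5.34 in knockdown, 21.0 in wild type), CDK11A for BAX (3.73 in knockdown, 7.85 in wild type) and TSC22D4 for BAK1 (3.94 in knockdown, 8.45 in wild type). The distances ran from 0.0116 percentile points for TSC22D4 to 0.572 for CCDC61. With this many genes in the lists a near neighbour is found for any pair of values, so these names describe the scale of the members' peaks only.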
